A study of Mus musculus with 4 samples.

Results

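The genes of 10 glycolytic enzymes were followed in AML12 hepatocytes given a Chrna4 expression plasmid. They were taken by symbol: Hk1, Hk2, Gpi1, Pfkl, Pfkp, Aldoa, Aldoc, Pgk1, Eno1 and Ldha. All 10 were among the 13422 genes of the deposited table. All 10 also passed the filter of a mean of at least 1 CPM (the read count scaled to a common library size), with 11298 genes tested in all. AML12 is an established line of mouse hepatocytes of CD-1 strain origin (line MT42), here at passages 3 to 5. The Chrna4 group, 2 libraries named Chrna4 1 and Chrna4 2, received the plasmid PAV-TBG-P2A-GFP-Chrna4, and its genotype label is Chrna4 over-expression. The control group, Control 1 and Control 3, received the plasmid pCMV6-AC-GFP. Both groups grew in the same medium, which held serum, insulin, transferrin, selenium and dexamethasone. The plasmids differ by name in more than the Chrna4 insert, with TBG and CMV, the usual names of a hepatocyte and a viral promoter, among the differences. The labels give neither the time after transfection nor the share of cells transfected.

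Glycolysis splits glucose into pyruvate in the cytosol and yields ATP and NADH, and lactate dehydrogenase turns pyruvate into lactate to regain NAD+. Several steps are shared out among isozymes with their own genes. Adult hepatocytes mainly use glucokinase and liver pyruvate kinase, while the hexokinases, aldolase A and the muscle-type kinase of the last step mark proliferating cells and cell lines. Many glycolytic genes respond to insulin, to MYC and to the hypoxia-inducible factors, which bind the core motif A or G followed by CGTG.

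The libraries were of even depth, from 31301396 to 32228360 reads on listed genes. The transfected gene, Chrna4, had 2678 and 2290 reads in the Chrna4 libraries, against 1 and 3 reads in the control libraries. The hepatocyte factor gene Hnf4a stood at 217 and 222 CPM in the Chrna4 libraries and at 231 and 248 CPM in the controls. Albumin was low and fell, with 7.93 and 8.51 CPM for Alb in the Chrna4 libraries and 17.8 and 19.0 CPM in the controls. Of 14 hepatocyte markers 11 were listed, and their summed level was 1656 and 1736 CPM in the Chrna4 libraries, against 1599 and 1739 CPM in the controls. A single abundant member made up 70.8% to 76.2% of that sum, and the others summed to 411 and 413 CPM in the Chrna4 libraries, against 466 and 470 CPM in the controls. The mean was lower in Chrna4 for 8 of the 11, and 3 of the 8 tested were called lower by limma, Alb among them. The 6 listed of 7 bile duct or progenitor markers summed to 1163 and 1139 CPM in the Chrna4 libraries, against 1590 and 1673 CPM in the controls, and 4 of the 6 were called lower. The part of these marker differences in the results was not tested. Of 19 markers of stellate cells, leukocytes and endothelial cells 5 were listed. The leukocyte markers summed to 3.87 and 4.40 CPM in the Chrna4 libraries and to 5.54 and 4.54 CPM in the controls, and the other 2 lists stayed under 1 CPM. In such bulk samples, fewer cells of a type and less RNA per cell cannot be told apart. Whether the libraries of a group came from separate cultures is not in the labels, so every p-value here rests on a spread between libraries that could be purely technical.

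Apart from Aldoc, the glycolytic enzyme genes moved little, and not all in one direction. Of the 10, Gpi1, Pfkl and Aldoc fell in Chrna4 cells, Hk2 rose, and 6 did not pass the test (limma-trend on log2(CPM + 1), Benjamini-Hochberg adjusted p under 0.05). Over all genes tested 15.9% were called, 9.26% as higher and 6.66% as lower. The size differed greatly between members, from -1.06 for Aldoc to 0.22 for Hk2 on the log2(CPM + 1) scale, and no other member moved by more than 0.27. The median change of the 10 was -0.12, beside -0.0028 for all genes tested. In 6 of the 10 the values of the groups did not overlap, 2 higher and 4 lower in Chrna4, where 57.5% of all genes tested had no overlap, 28.7% as higher and 28.8% as lower. The summed level of the 10 was 3267 and 3011 CPM in the Chrna4 libraries and 3503 and 3264 CPM in the controls. Aldoa made up 48.6% to 49.7% of it in each library. Reads given to near-identical copies of Gpi1, Pgk1 and Eno1 are not in this sum. Of these copies Gm5506 alone had 1094 and 1075 CPM in the Chrna4 libraries, so the share of Aldoa depends on that assignment. Chrna4 1 and Control 3 were close in this sum, so that the groups overlapped only narrowly. In the authors' deposited table the same 4 genes were past an adjusted p of 0.05.

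**Figure D1:**
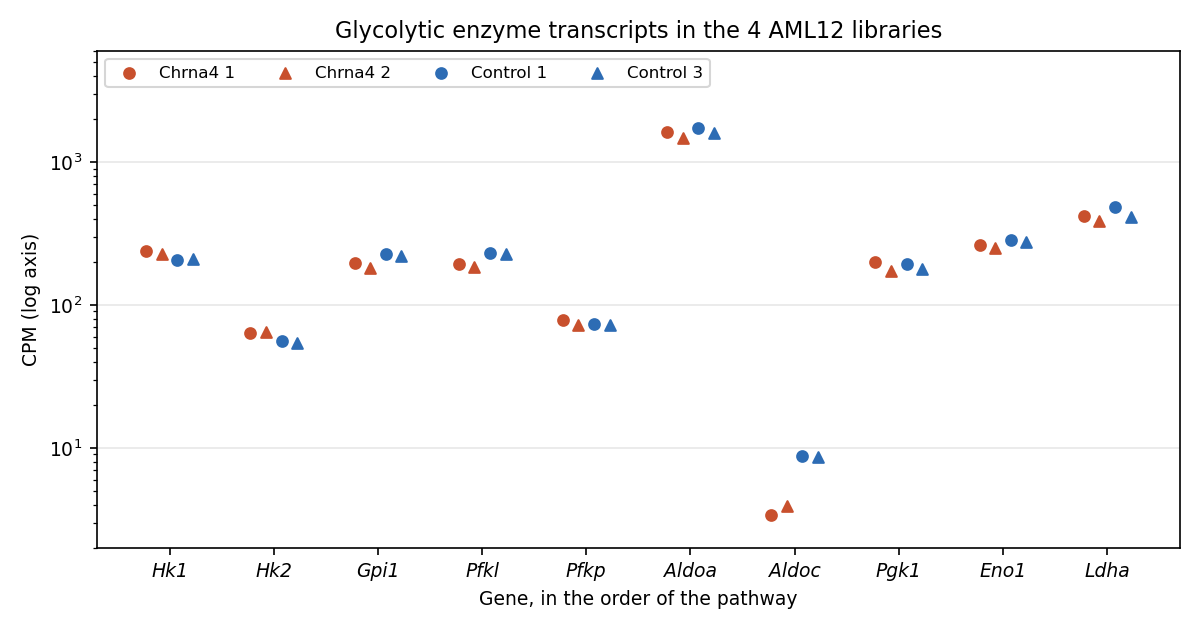
CPM of each glycolytic enzyme gene (log axis) in the libraries Chrna4 1, Chrna4 2, Control 1 and Control 3, one point per library, with genes in the order of the pathway. Aldoc is the gene whose groups lie farthest apart, at 3.41 and 3.93 CPM in the Chrna4 libraries and 8.81 and 8.65 CPM in the controls.

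The promoters of the 4 called genes are shown, with those of Pgk1 and Ldha, whose ACGTG matches lie in the window but which did not pass the test. Each line is the 250 bases before the most upstream RefSeq start, 5′ to 3′ on the gene's strand, on GRCm38.p6. Capitals mark ACGTG and GCGTG, searched on both strands, so that CACGT and CACGC are their reverse complements. The windows are chr6:82774455-82774704 (minus strand) for Hk2, chr7:34230337-34230586 (minus) for Gpi1, chr10:78009808-78010057 (minus) for Pfkl, chr11:78322823-78323072 (plus) for Aldoc, chrX:106186850-106187099 (plus) for Pgk1 and chr7:46845554-46845803 (plus) for Ldha.
Hk2: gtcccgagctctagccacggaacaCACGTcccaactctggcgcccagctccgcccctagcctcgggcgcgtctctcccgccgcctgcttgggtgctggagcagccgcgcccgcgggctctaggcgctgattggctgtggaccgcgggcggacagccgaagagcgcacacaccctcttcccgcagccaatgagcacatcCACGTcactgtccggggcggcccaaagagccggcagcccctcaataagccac
Gpi1: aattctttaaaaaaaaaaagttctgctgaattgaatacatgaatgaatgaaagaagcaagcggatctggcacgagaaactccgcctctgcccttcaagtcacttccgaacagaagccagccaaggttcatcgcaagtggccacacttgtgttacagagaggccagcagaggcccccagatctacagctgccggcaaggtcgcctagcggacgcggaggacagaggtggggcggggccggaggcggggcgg
Pfkl: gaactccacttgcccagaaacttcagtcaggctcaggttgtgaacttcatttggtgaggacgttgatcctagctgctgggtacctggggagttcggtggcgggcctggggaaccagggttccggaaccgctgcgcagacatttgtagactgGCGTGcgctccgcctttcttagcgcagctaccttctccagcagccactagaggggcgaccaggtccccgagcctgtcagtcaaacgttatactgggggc
Aldoc: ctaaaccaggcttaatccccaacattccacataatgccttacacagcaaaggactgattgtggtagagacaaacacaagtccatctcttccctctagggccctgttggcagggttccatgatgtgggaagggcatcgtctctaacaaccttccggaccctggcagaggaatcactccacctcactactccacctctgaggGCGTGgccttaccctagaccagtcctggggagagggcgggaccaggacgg
Pgk1: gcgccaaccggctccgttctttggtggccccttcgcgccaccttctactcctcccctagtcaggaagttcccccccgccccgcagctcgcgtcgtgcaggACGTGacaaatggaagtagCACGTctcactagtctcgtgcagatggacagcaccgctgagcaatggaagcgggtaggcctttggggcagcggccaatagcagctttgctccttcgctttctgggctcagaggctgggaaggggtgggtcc
Ldha: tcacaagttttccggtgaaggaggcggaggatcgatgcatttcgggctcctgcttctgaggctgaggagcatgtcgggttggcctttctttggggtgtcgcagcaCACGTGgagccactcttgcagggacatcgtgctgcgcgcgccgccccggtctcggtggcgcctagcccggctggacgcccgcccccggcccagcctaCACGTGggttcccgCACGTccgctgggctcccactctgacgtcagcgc
Hk2 held 2 ACGTG matches, starting 226 and 52 bases before the start site. Pfkl held 1 GCGTG match at 99 bases and Aldoc 1 at 50 bases, and Gpi1 held neither. Pgk1 held 2 ACGTG matches at 150 and 131 bases. Ldha held 5, of which 4 were the strands of 2 CACGTG palindromes. Counting every annotated start, 9 of the 10 genes had a match to either motif in at least 1 of their windows, or 14 of 17 windows (82.4%), beside 63.2% of the 8436 tested genes found in the promoter table and 56.8% of their 10842 windows. These shares are not of separate windows: windows 2 and 3 of Aldoa overlap and share a match, as do windows 2 and 3 of Eno1. The 10 genes also have more windows per gene, which raises their share. In the most upstream window alone, Hk1, Gpi1 and Aldoa had no match. Among the genes that fell, Gpi1 had no match, and Pfkl and Aldoc had 1 each in the windows shown.

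Hexokinases trap glucose in the cell by phosphorylating it. Hk2 (ENSMUSG00000000628; GRCm38 chromosome 6, 82725025 to 82774454, minus strand), an insulin-responsive isozyme, had 63.8 and 65.1 CPM in the Chrna4 libraries, against 55.7 and 54.5 CPM in the controls. Both Chrna4 values lay above both controls, and the exact 95% counting interval of the difference within each group included 0. Hk2 rose by 16.9% (log2 0.22, SE 0.07, adjusted p = 0.045 by limma). That call was at the margin: the adjusted p was 0.0797 with DESeq2, 0.111 with library totals, 0.222 without Chrna4 1 and 0.324 without Chrna4 2. Hk1 (ENSMUSG00000037012; chromosome 10, 62268855 to 62379908, minus strand), the broadly expressed isozyme, had 239 and 228 CPM in the Chrna4 libraries and 207 and 211 CPM in the controls. Its groups did not overlap either, but it did not pass the test (log2 0.16, 95% interval 0.04 to 0.28, adjusted p = 0.0799 by limma). It passed without Control 1 (0.0173) and without Control 3 (0.00343). Divided by transcript length, Hk2 made up 17.2% and 18.1% of the hexokinase level of this pair in the Chrna4 libraries and 17.3% and 16.7% in the controls, so the balance of the isozymes overlapped between groups.

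Gpi1 encodes glucose-6-phosphate isomerase, which makes fructose-6-phosphate (ENSMUSG00000036427; chromosome 7, 34201330 to 34230336, minus strand). It had 196 and 180 CPM in the Chrna4 libraries, against 229 and 221 CPM in the controls. The groups did not overlap, and the lower of the Chrna4 libraries was Chrna4 2. Gpi1 fell by 16.4% (log2 -0.26, SE 0.06, adjusted p = 0.0138 by limma), with an adjusted p of 0.305 without Chrna4 2. Its level is uncertain, because 50.2% of its longest coding transcript matched the pseudogene Gm1840 over stretches of at least 150 bases, the read length, at 95% identity or more. The table gave Gm1840 more reads than Gpi1, at 425 and 416 CPM in the Chrna4 libraries and 493 and 512 CPM in the controls. Gm1840 fell as well (log2 -0.26, SE 0.05, adjusted p = 0.00717 by limma). Summed, the pair had 621 and 596 CPM in the Chrna4 libraries and 722 and 733 CPM in the controls, a log2 ratio of means of -0.26, as for Gpi1 alone.

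Phosphofructokinase commits sugar to glycolysis. Pfkl, the liver-type subunit (ENSMUSG00000020277; chromosome 10, 77986947 to 78010083, minus strand), had 195 and 184 CPM in the Chrna4 libraries, against 230 and 227 CPM in the controls. Each Chrna4 library was below each control. Pfkl fell by 17.1% (log2 -0.27, SE 0.06, adjusted p = 0.00725 by limma), with an adjusted p of 0.2 without Chrna4 2. Pfkp, the platelet-type subunit (ENSMUSG00000021196; chromosome 13, 6579768 to 6648777, minus strand), had 78.6 and 72.6 CPM in the Chrna4 libraries and 73.9 and 72.3 CPM in the controls. Its groups overlapped, and its change was 0.05 (95% interval -0.10 to 0.20, adjusted p = 0.704 by limma), with the sign turned to -0.0066 under library totals. Per transcript length Pfkp made up 26.6% and 26.1% of the 2 subunits in the Chrna4 libraries and 22.4% and 22.3% in the controls. The exact 95% counting intervals ran from 25.2% to 27.6% in the Chrna4 libraries and from 21.5% to 23.2% in the controls, so the shares did not overlap. The mean difference was 4.06 percentage points (26.4% ± 0.355 against 22.3% ± 0.0707, SD, n = 2 each), and 2.83 with merged exon lengths. The third subunit gene, Pfkm of muscle, also fell, with 41.4 and 46.5 CPM in the Chrna4 libraries and 52.2 and 55.0 CPM in the controls (log2 -0.28, SE 0.08, adjusted p = 0.0337 by limma). Pfkm was picked with its value known.

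Aldolases cleave fructose-1,6-bisphosphate. Aldoc, the isozyme best known from brain (ENSMUSG00000017390; chromosome 11, 78322968 to 78327781, plus strand), had 3.41 and 3.93 CPM in the Chrna4 libraries, from 105 and 124 reads. The controls had 8.81 and 8.65 CPM, from 286 and 280 reads. The groups were far apart, and within each pair the counting interval of the difference included 0. Aldoc averaged 3.67 ± 0.362 CPM in Chrna4 cells and 8.73 ± 0.11 CPM in control cells (SD, n = 2 each), a ratio of 0.42 (log2(CPM + 1) -1.06, SE 0.14, adjusted p = 0.000318 by limma). It was the one member called under all 13 alternatives, with adjusted p-values from 1.14e-06 to 0.000683. Aldoa, the muscle-type isozyme and the main aldolase of most cultured cells (ENSMUSG00000030695; chromosome 7, 126795234 to 126800751, minus strand), had 1615 and 1464 CPM in the Chrna4 libraries and 1741 and 1599 CPM in the controls. Chrna4 1 exceeded Control 3, so the groups overlapped, and the change did not pass (log2 -0.12, 95% interval -0.27 to 0.03, adjusted p = 0.288 by limma). It passed without Control 3 (3.28e-05). Per transcript length Aldoc made up 0.117% and 0.149% of this pair in the Chrna4 libraries and 0.281% and 0.3% in the controls, so the fall of Aldoc was in a minor part of the aldolase level.

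**Figure D2:**
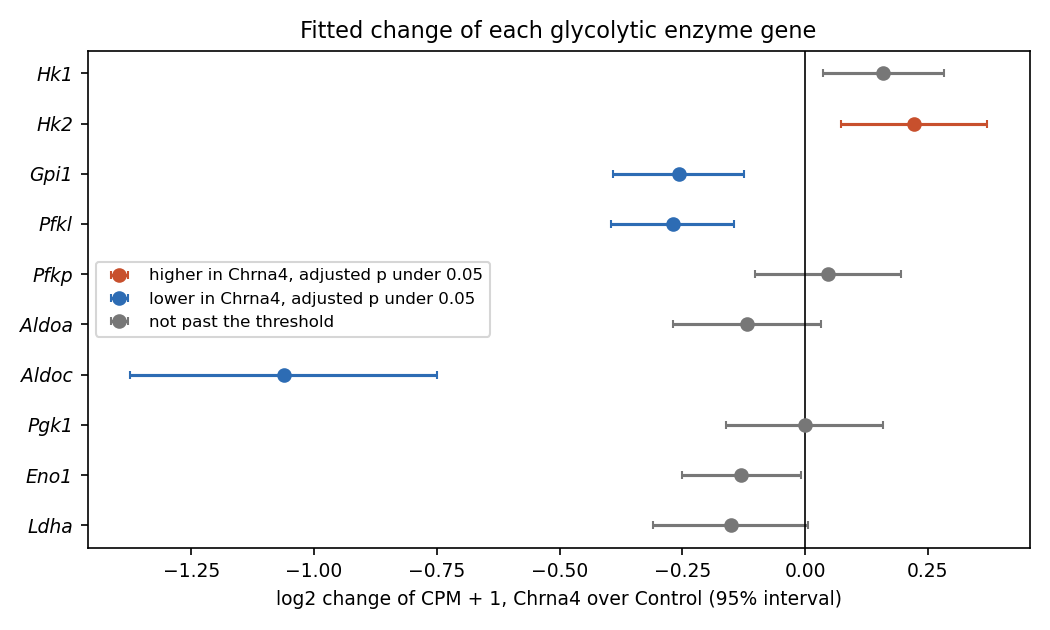
Fitted change of each glycolytic enzyme gene, Chrna4 over Control, on the log2(CPM + 1) scale, with the 95% interval of the limma fit (n = 2 libraries per group). Gpi1, Pfkl and Aldoc lie below 0 and Hk2 above it past the threshold on the adjusted p, and Aldoc, at -1.06, stands well apart from the other members.

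Phosphoglycerate kinase makes the first ATP of the payoff phase. Pgk1 (ENSMUSG00000062070; chromosome X, 106187100 to 106203699, plus strand) had 199 and 173 CPM in the Chrna4 libraries and 193 and 178 CPM in the controls. The Chrna4 libraries enclosed the controls, and the change was -0.00021 with a 95% interval of -0.16 to 0.16 (adjusted p = 0.999 by limma). Of its longest coding transcript 68.8% matched near-identical stretches of 4 other annotated genes. One of them, Pgk1-rs7, stood at 620 and 580 CPM in the Chrna4 libraries and at 687 and 618 CPM in the controls (log2 -0.12, adjusted p = 0.25 by limma). Summed, Pgk1 and this copy had 819 and 753 CPM in the Chrna4 libraries and 881 and 796 CPM in the controls, a log2 ratio of means of -0.09, beside 0.0020 for Pgk1 alone. Eno1, the ubiquitous enolase (ENSMUSG00000063524; chromosome 4, 150236721 to 150248879, plus strand), had 261 and 251 CPM in the Chrna4 libraries and 283 and 277 CPM in the controls. Its groups did not overlap, yet the difference did not pass the test (log2 -0.13, 95% interval -0.25 to -0.01, adjusted p = 0.143 by limma). It passed with library totals (0.0417) and without Control 3 (0.0137). Near-identical stretches covered 85.6% of the Eno1 transcript. The retrogene Gm5506, annotated as Eno1b, took more reads than Eno1, at 1094 and 1075 CPM in the Chrna4 libraries and 1166 and 1131 CPM in the controls. With it, the enolase sum was 1355 and 1326 CPM in the Chrna4 libraries and 1448 and 1408 CPM in the controls, a log2 ratio of means of -0.09.

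Ldha, the A subunit of lactate dehydrogenase (ENSMUSG00000063229; chromosome 7, 46841475 to 46855627, plus strand), had 416 and 389 CPM in the Chrna4 libraries and 481 and 415 CPM in the controls. Chrna4 1 was just above Control 3, so the groups overlapped. The change was -0.15 (95% interval -0.31 to 0.01, adjusted p = 0.187 by limma). The controls differed, so the change depended on which was kept: it was -0.05 without Control 1 and -0.26 without Control 3. Near-identical stretches of 4 pseudogenes, none of them in the table, covered 55.0% of the Ldha transcript. For Hk1, Hk2, Pfkl, Pfkp, Aldoa and Aldoc no such stretch was found in transcripts of other genes.

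Levels of different genes were compared per kilobase of the longest coding transcript. Aldoa was the most abundant member, with 994 CPM per kb as the mean of the Chrna4 libraries and 1078 CPM per kb in the controls. Ldha followed at 222 and 247 CPM per kb, Eno1 at 126 and 138 and Pgk1 at 102 in both groups, the Chrna4 mean first. The middle of the order held Gpi1 at 65.2 CPM per kb in Chrna4 and 78.0 in control cells, Hk1 at 54.6 and 48.9, and Pfkl at 50.8 and 61.3. Hk1 thus stood above Pfkl in both Chrna4 libraries and below it in both controls. Pfkp (18.2 CPM per kb in Chrna4, 17.6 in control cells) and Hk2 (11.7 and 10.0) were lower, and Aldoc (1.32 and 3.13) came last. No neighbours in this order overlapped across the 4 libraries other than Hk1 and Pfkl, but reads given to near-identical copies could move Gpi1, Pgk1, Eno1 and Ldha, and transcript lengths are those of the annotation, not of these cells.

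The libraries of one group also differed in these genes. Between the Chrna4 libraries, 8 of the 10 were higher in Chrna4 1 than in Chrna4 2, each by more than its exact 95% counting interval, which covers counting error only. The median log2(CPM + 1) difference was 0.09, whereas over all genes tested 49.5% were higher in Chrna4 1 and the median difference was -0.00097. The share of all genes whose interval excludes equality was not computed. At such read counts a small difference is enough: Eno1, with 8036 and 7916 reads, stood at 1.04 times (1.01 to 1.08). Pgk1 differed most among the 8, with 1.15 times the level of Chrna4 2 in Chrna4 1 (exact 95% interval 1.11 to 1.19), followed by Aldoa at 1.10 times (1.09 to 1.12) and Gpi1 at 1.09 times (1.05 to 1.13). The exceptions, Hk2 and Aldoc, were lower in Chrna4 1 by less than counting error. Chrna4 1 also held more of the transfected transcript, 87.1 CPM against 72.5 CPM of Chrna4 in Chrna4 2, and its part in the difference was not tested.

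The controls differed too. In Control 1, 9 of the 10 genes stood above their Control 3 level, with a median log2(CPM + 1) difference of 0.03, and so did 50.2% of all genes tested. The counting interval excluded equality for 4 of them, Gpi1, Aldoa, Pgk1 and Ldha, again with no share over all genes to set beside it. Ldha differed most, with 1.16 times the Control 3 level in Control 1 (exact 95% interval 1.13 to 1.19), and Aldoa was at 1.09 times (1.08 to 1.10). For Pfkp, Aldoa, Pgk1 and Ldha the difference within at least 1 group was larger than that between the groups. In the full comparison the median log2(CPM + 1) change of the 10 was -0.12. It was -0.17 without Chrna4 1, -0.07 without Chrna4 2, -0.05 without Control 1 and -0.16 without Control 3. In a fit with a library left out, each gene's spread is measured in the other group's pair alone. The lone library is assumed to vary like it, so calls over all genes shift too.

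**Figure D3:**
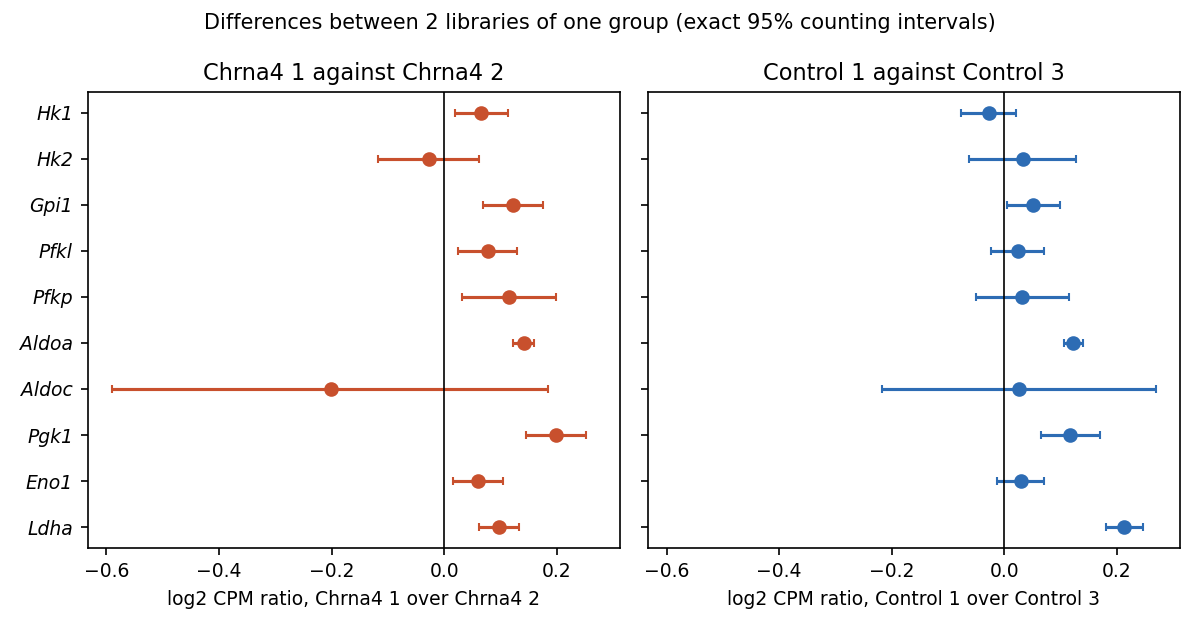
log2 ratio of CPM between the libraries of one group for each glycolytic enzyme gene, Chrna4 1 over Chrna4 2 on the left and Control 1 over Control 3 on the right, with exact 95% intervals that cover counting error only. In the Chrna4 pair 8 of 10 genes lie above 0 with their whole interval, and in the control pair 4 of 10. The share of such intervals over all genes was not computed.

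Around the 10 enzymes, 110 further genes of carbohydrate metabolism fell into 7 lists. Of these 87 were tested, and 19 were lower and 3 higher in Chrna4 cells, with a median log2 change of -0.10. Over all genes tested, 6.66% were called lower and 9.26% higher (15.9% in either direction), and the counts of each list stand beside those shares. With few genes in a list, 1 to 3 calls, as among the regulators, the pentose phosphate genes and the transcription factors, lie near them. Among the other glycolytic enzymes 6 of 15 tested fell and 0 rose, with a median of -0.22. At an unadjusted p under 0.05 by limma 0 were higher, and limma-voom, DESeq2 and edgeR also called 0 as higher. Eno1b belongs to this list but is listed as Gm5506, so it was not counted among the 15 or the 87. Gm5506 was not called (log2 -0.08, adjusted p = 0.367 by limma). Pkm, the muscle-type pyruvate kinase gene, had 1532 and 1394 CPM in the Chrna4 libraries, against 1614 and 1558 CPM in the controls. It did not pass the test (log2 -0.12, adjusted p = 0.252 by limma), nor did the abundant Tpi1 (0.0599) and Gapdh (0.27). Pkm, Tpi1 and Gapdh were picked with their values known. Pklr, the liver and red cell pyruvate kinase, had 42.9 and 44.8 CPM in the Chrna4 libraries, against 58.2 and 67.4 CPM in the controls (log2 -0.50, SE 0.08, adjusted p = 0.00134 by limma). Eno2, the enolase known from neurons, had 11.1 and 7.03 CPM in the Chrna4 libraries, against 17.2 and 17.0 CPM in the controls (log2 -0.88, SE 0.16, adjusted p = 0.00329 by limma). Pklr and Eno2 were lower in each Chrna4 library than in each control. Pgam1, the phosphoglycerate mutase of most tissues, fell by 14.1%, with 441 and 424 CPM in the Chrna4 libraries and 521 and 485 CPM in the controls (adjusted p = 0.0256 by limma). Its call was lost without Chrna4 1 (0.179) and without Chrna4 2 (0.375). Also called in this list were Pfkm, given above, and Eno3 (log2 -0.37, adjusted p = 0.0479 by limma), which was likewise picked with its value known.

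Of 9 tested transporter genes, 3 fell and 1 rose. Bsg, the chaperone of the lactate transporters, had 528 and 472 CPM in the Chrna4 libraries, against 638 and 590 CPM in the controls (log2 -0.30, adjusted p = 0.0106 by limma). Slc37a4, which carries glucose-6-phosphate into the endoplasmic reticulum, had 20.2 and 17.3 CPM in the Chrna4 libraries, against 27.9 and 24.1 CPM in the controls (log2 -0.45, adjusted p = 0.0147 by limma). The intracellular glucose transporter gene Slc2a8 fell by 27.1% (0.041). Slc2a6, a transporter of low level here, was the one that rose, with 3.61 and 4.27 CPM in the Chrna4 libraries and 2.16 and 1.58 CPM in the controls (log2 0.79, SE 0.19, adjusted p = 0.0135 by limma). All 4 calls were lost without Chrna4 2, with adjusted p-values of 0.301, 0.131, 0.161 and 0.124 in the same order. Slc2a8 was also lost without Chrna4 1 (0.19), without Control 3 (0.0736), with DESeq2 (0.0995), with limma-voom (0.0502) and without the filter (0.0614).

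Of 17 regulators of glycolytic and pyruvate flux, 2 fell and 0 rose by limma, limma-voom, DESeq2 and edgeR, with 2 higher at an unadjusted p under 0.05 by limma. The genes that fell encode kinases that shut pyruvate dehydrogenase. Pdk1 had 29.2 and 26.3 CPM in the Chrna4 libraries, against 42.2 and 46.3 CPM in the controls (log2 -0.65, SE 0.09, adjusted p = 0.000318 by limma). Pdk2 had 7.96 and 5.63 CPM, against 11.4 and 14.3 CPM in the controls (log2 -0.84, SE 0.16, adjusted p = 0.00414 by limma). The family members Pdk3 and Pdk4, picked with their values known, went the other way without passing. Pdk3 was among the 2 higher at an unadjusted p under 0.05 (log2 0.31, adjusted p = 0.0783 by limma). Pdk3 had 15.9 and 14.9 CPM in the Chrna4 libraries, against 11.9 and 12.7 CPM in the controls. Pdk4 was low (log2 0.20, adjusted p = 0.545 by limma). Of 9 gluconeogenesis genes only 5 were listed and tested: Pck2, G6pc3, Pcx, Gpd1 and Gpd2. Pck1, G6pc, Fbp1 and Fbp2 were not listed, so these genes could not be followed. Of the 5 tested, 0 were called by limma, limma-voom, DESeq2 and edgeR, and 0 at an unadjusted p under 0.05 by any of them. The most abundant of the 5, Pck2, the mitochondrial phosphoenolpyruvate carboxykinase, stood at 216 and 219 CPM in the Chrna4 libraries and at 221 and 215 CPM in the controls. Gpd2, the mitochondrial glycerol-3-phosphate dehydrogenase, stood at 151 and 155 CPM in the Chrna4 libraries and at 154 and 168 CPM in the controls. In the pentose phosphate pathway 1 of 10 rose and 0 fell by the same tools, with 1 lower at an unadjusted p under 0.05 by limma. G6pdx, which opens that pathway, had 103 and 102 CPM in the Chrna4 libraries, against 87.8 and 83.3 CPM in the controls (log2 0.26, SE 0.06, adjusted p = 0.0162 by limma), a call lost without Chrna4 1 (0.167) and without Chrna4 2 (0.13). The transketolase gene Tkt (955 and 964 CPM in the Chrna4 libraries, 1067 and 1053 CPM in the controls) and Pgd (515 and 521 CPM, against 519 and 483 CPM in the controls) did not pass. Tkt passed as lower with library totals (0.0273), without Control 1 (0.00456) and without Control 3 (0.000889).

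Glycogen genes fell in part, 6 of 16 tested with 0 higher by the same tools and 1 higher at an unadjusted p under 0.05 by limma. Ppp1r3b, a subunit that directs protein phosphatase 1 to glycogen, fell by 38.3% (adjusted p = 0.007 by limma). The branching enzyme gene Gbe1 fell by 28.7% (0.0109), and the phosphoglucomutase family gene Pgm2l1 fell by 25.8% (0.0157). Without Chrna4 2 the calls of Ppp1r3b (0.0667) and Pgm2l1 (0.141) were lost. Of 15 transcription factor genes 1 rose and 2 fell. Myc, which activates glycolytic genes, had 316 and 323 CPM in the Chrna4 libraries, against 240 and 259 CPM in the controls (log2 0.36, SE 0.06, adjusted p = 0.00136 by limma). Mxi1, which opposes MYC at shared sites, had 25.5 and 20.4 CPM in the Chrna4 libraries, against 38.2 and 35.4 CPM in the controls (log2 -0.67, SE 0.11, adjusted p = 0.00117). The hypoxia-inducible factor genes Hif1a and Arnt, picked with their values known, did not pass (adjusted p = 0.822 and 0.886 by limma). Hif1a had 99.6 and 101 CPM in the Chrna4 libraries and 108 and 96.8 CPM in the controls. Epas1, encoding the hypoxia-inducible factor HIF-2 alpha, was at a low level and fell (log2 -0.62, adjusted p = 0.0216 by limma). Epas1 had 3.15 and 2.85 CPM in the Chrna4 libraries and 4.77 and 5.56 CPM in the controls. Its call was lost without Chrna4 1 (0.0516), without Chrna4 2 (0.13) and without Control 3 (0.0599).

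**Figure D4:**
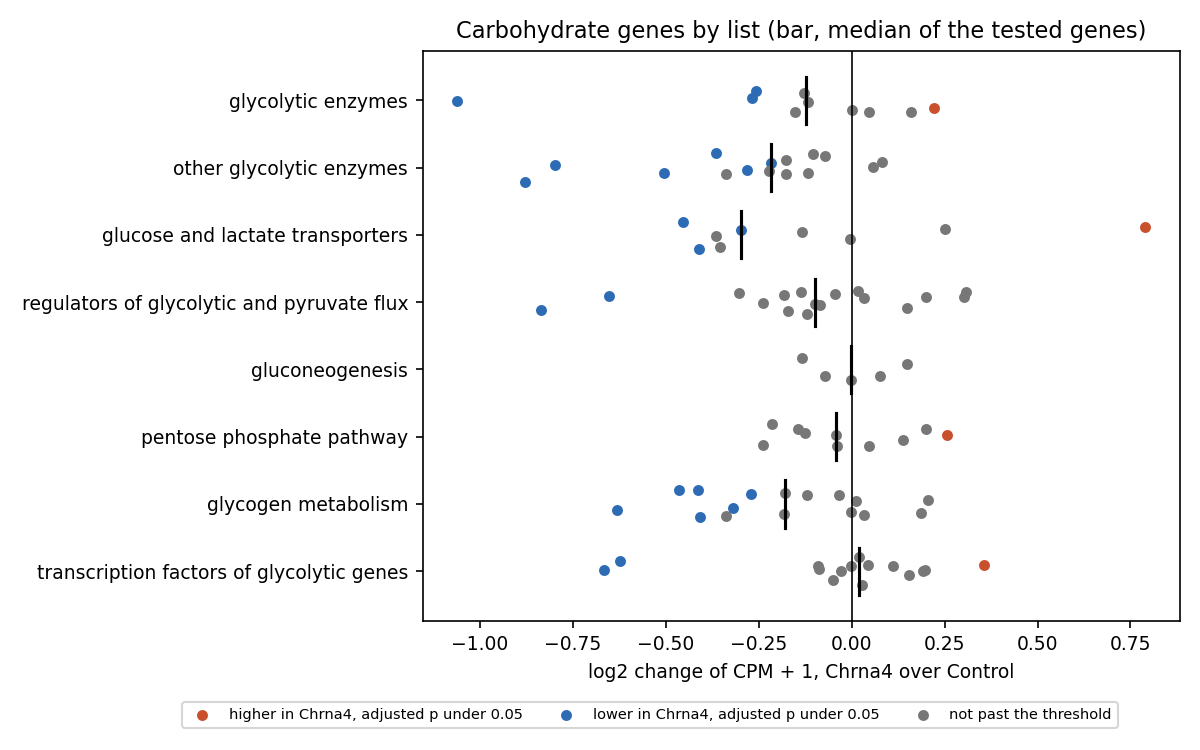
Fitted log2(CPM + 1) change, Chrna4 over Control, of the tested genes among the glycolytic enzymes and the 7 other lists. Each point is a gene, a bar marks each median, and Gm5506 (Eno1b) is not shown. The other glycolytic enzymes have a median of -0.22, the 5 tested of 9 gluconeogenesis genes one near 0, and the called genes of the glycogen list all lie below 0.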

How the data were processed

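Polyadenylated RNA of AML12 cells was sequenced on an Illumina instrument in paired reads, per the labels' protocols, in 2 libraries per plasmid. TopHat2 and HTSeq are named without versions, along with the builds mm10 and GRCm38, per the submitters' processing notes. How strand and reads with several matches were handled is not given in the sources. The authors deposited 1 table with a per-library signal, a CPM on a scaled library size, and their own comparison, per the file headers: p-values, raw and adjusted, beside a log2 fold change (control over Chrna4) and a log2 mean. In each library 100% of the deposited values were whole multiples of 1 step within 0.01 reads, so reads could be recovered.

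The glycolytic genes, the other lists and the tests were chosen with earlier results of these data known. Limma-trend (limma 3.58.1, R 4.3.3) was fitted to log2(CPM + 1) of 11298 genes, those averaging 1 CPM or more, which understates the change of low genes. It had 2 residual and 9.55 prior degrees of freedom and was tested on simulated data. The alternatives scaled by RLE factors or by library totals, dropped the filter or raised it to 5 CPM, used a pseudocount of 0.1, left out each library, or ran limma-voom, DESeq2 1.42.0 and edgeR 4.0.16 (with and without robust estimation) on recovered reads. These count tests called 1804, 1584, 1811 (not robust) and 1854 (robust) genes, against 1798. They were not the main test because the deposited values are not raw counts. Genes named outside the 10 enzymes were, per list, up to 4 called genes of smallest adjusted p, or the called one and the 2 most abundant others where fewer than 2 were called. Some genes that this rule names are not reported here. Coordinates and transcript lengths are from GENCODE M21 (GRCm38), which held 98.9% of the identifiers, promoters from RefSeq (GRCm38.p6), and near-identical stretches from blastn 2.17.0.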

Additional observations from a re-analysis of the deposited data

How the results depend on the processing

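The median change of the glycolytic enzymes was negative under every alternative, from -0.17 to -0.05 with a library left out and from -0.18 to -0.12 otherwise. Aldoc was called lower in all 13. With a library left out, 0 to 2 enzymes were called higher and 1 to 6 lower, 1 to 11 and 8 to 27 of the other carbohydrate genes, and 604 to 1712 and 324 to 1296 of all genes. The number of enzymes called higher was 0 with library totals and 0 with DESeq2, where the call of Hk2 was lost, and 1179 genes in all were lower with library totals (812 higher, so that 40.8% of calls were increases, against 58.2%). Library totals moved the median of all genes to -0.05. Over the 10 enzymes and 13 alternatives, 110 of 130 values kept direction and side of the threshold, 6 lost and 6 gained a call, and 8 changed sign, in Pfkp and Pgk1, neither of which was called. Pfkp was at -0.0066 with library totals, and from -0.010 to 0.10 with a library left out. Pgk1 was at 0.0013 with RLE factors, 0.0023 with DESeq2 and 0.0019 with edgeR, robust or not, and from -0.10 to 0.10 with a library left out. Of the other named genes Pgd was at -0.0061 with library totals and from -0.0044 to 0.10 with a library left out, and Pck2 from -0.023 to 0.019. The difference in the Aldoc share was -0.28 percentage points without division by length and -0.25 with merged exon lengths, a setting chosen after seeing the data, against -0.16. The causes were not tested.

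No paired analysis was possible because the groups share only replicate number 1. With 2 libraries per group, the calls of Hk2, Gpi1 and Pfkl did not hold without Chrna4 2, nor that of Hk2 without Chrna4 1. Their log2(CPM + 1) changes without Chrna4 2 were 0.21, -0.20 and -0.23, against 0.22, -0.26 and -0.27 with all libraries. Without Control 3 the change was 0.17 for Hk1, -0.18 for Aldoa, -0.14 for Eno1 and -0.26 for Ldha. With all libraries it was 0.16, -0.12, -0.13 and -0.15 in the same order. Reads that fit near-identical copies limit Gpi1, Pgk1, Eno1 and Ldha.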
